A study of Homo sapiens with 6 samples.

Results

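Integrins and the proteins that join them to the actin cytoskeleton were examined after knockdown of ERK3 in A375 cells, a line established from a human melanoma. The genes were chosen by name: every integrin alpha or beta subunit symbol, plus 16 cytoplasmic proteins of focal adhesions. Of the 42 genes this covers, 39 were measured among the 17687 genes of the array, 25 of them integrin subunits and 14 cytoplasmic proteins. ITGA1, TLN1 and TNS1 were not analysed here. A transient transfection had delivered either an siRNA, a short RNA duplex that directs the breakdown of a matching transcript, against ERK3 (siERK3, 3 arrays) or a negative control siRNA (siCon, 3 arrays), and total RNA was taken 3 days after transfection. All 6 arrays are of this one cell line. Nothing in the labels ties the 3 samples of a group to separate cultures, so the p-values reflect array-to-array spread alone, and that spread could be technical. In RNA from a whole culture, fewer cells of a kind and less RNA per cell cannot be told apart.

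An integrin is a pair of membrane-spanning chains, one alpha and one beta, that binds matrix proteins such as collagen, laminin, fibronectin or vitronectin outside the cell. Inside the cell, talins and kindlins bind the tail of the beta chain and switch the receptor on, while vinculin, the parvins, the tensins and zyxin tie it to actin. Focal adhesion kinase (FAK, encoded by PTK2), paxillin and p130Cas carry the signal onward. In melanoma, integrins containing the beta3 chain are known for their link to invasive growth.

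ERK3 is an atypical MAP kinase encoded by MAPK6, and its transcript checks the labels. MAPK6 read 10.54, 10.32 and 10.67 on the log2 scale in the siERK3 arrays, against 13.45, 13.55 and 13.62 in the siCon arrays, so the groups did not overlap. The signal in siERK3 was 12.2% of that in siCon (95% interval 9.77% to 15.3%). Limma's adjusted p was 0.000133, and the exact two-sided permutation p of 0.1 is the smallest that 3 against 3 arrays allow. On the second principal component over all genes siERK3 3 (-15.2) and siCon 2 (-26.5) lay apart from the other 4 arrays (4.35 to 21.7). Some of the counts below are also given without both. Of 10 measured melanocyte and melanoma markers, 6 lay above background on every array, among them SOX10, MITF, S100B and MIA, and the pigmentation genes MLANA, PMEL, TYR and TYRP1 lay below it on every array.

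No integrin or focal adhesion gene passed the test. With Benjamini-Hochberg adjustment over all 17687 genes, limma called 0 of the 39 genes at an adjusted p under 0.05, against 169 of all genes (0.956%). The smallest adjusted p was 0.136, for ITGA6. At an unadjusted p under 0.05 in limma stood 11 of the 39. Of these, 7 were lower in siERK3, or 17.9% against 6.5% of all genes, and 4 were higher, or 10.3% against 6.98% of all genes. These counts were not steady: the 7 became 3 without siERK3 3, 4 without siERK3 1, siCon 1 or siCon 3, and 4 without siERK3 3 and siCon 2 together. The 4 became 1 without siERK3 1 and 2 without siERK3 3, siCon 2, siCon 3 or both siERK3 3 and siCon 2. With its own standard error, a gene of the group would have needed a log2 difference between 0.65 (1.57-fold) and 1.32 (2.50-fold) to be called, and the differences measured ran from -0.56 to 0.47.

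Background was set at the 95th percentile of the 612 negative control probe sets of each array, which lay between 7.32 and 7.56. Of the 39 genes, 24 were above it on all 6 arrays and 15 below it on all 6. Among the 24 detected genes 19 had a lower mean in siERK3 and 5 a higher one, with a median log2 difference of -0.18. Without siERK3 3 and siCon 2, 16 of the 24 were lower. The median over all 7721 detected genes was 0.00, with 3920 lower and 3801 higher. At an unadjusted p under 0.05, 29.2% of the 24 were lower, against 8.96% of all detected genes, and 16.7% were higher, against 8.76%. The 3 siERK3 arrays all lay below the 3 siCon arrays for 10 of the 39 genes (25.6%, against 9.7% of all genes) and all above them for 4 (10.3%, against 10.1%). These shares describe the genes and carry no test of their own.

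**Figure D1:**
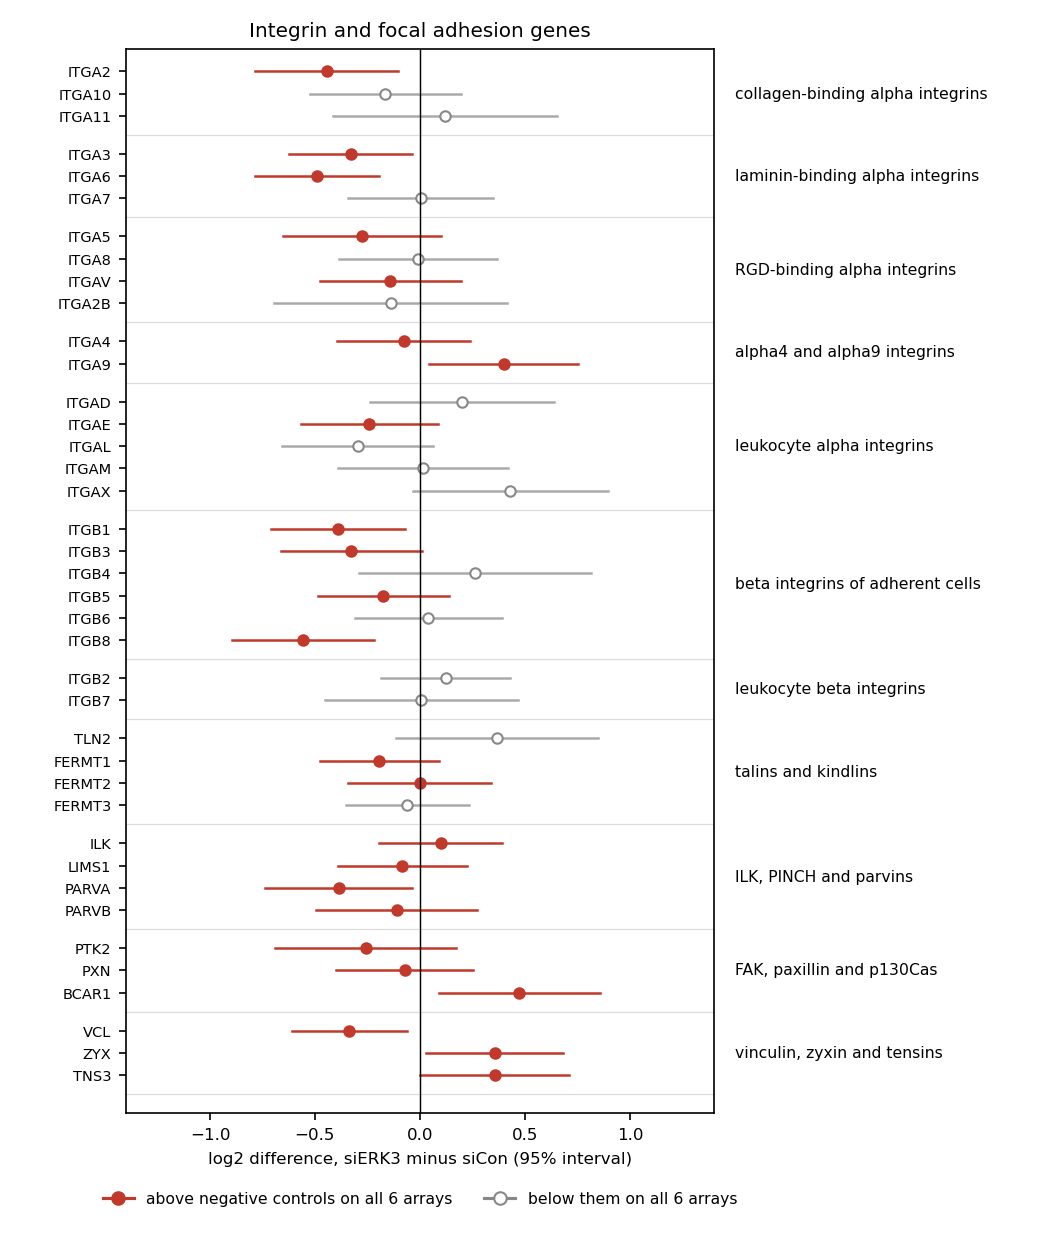
Log2 difference (siERK3 minus siCon, x axis) of each of the 39 genes, grouped by role, with limma's 95% interval. Filled points are genes above the negative controls on all 6 arrays. The intervals of 11 genes exclude 0, 7 of them on the lower side, and none reached an adjusted p under 0.05.

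The detected integrins leaned to one side. Of 12 integrin subunits above background on all 6 arrays, 11 had a lower mean in siERK3, and their median log2 difference was -0.30. The 3 siERK3 arrays lay below all 3 siCon arrays for 7 of the 12 and above them for 1, while 15% of all detected genes lay wholly lower and 14.5% wholly higher. Without siERK3 3 and siCon 2 together, 10 of the 12 were lower, with a median of -0.34.

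ITGB8 (probe set TC0700006844.hg.1) encodes the beta8 chain, which pairs with alphaV and is known to activate latent TGF-beta. It read 13.23, 13.36 and 13.30 in siERK3, against 14.05, 13.62 and 13.88 in siCon. The groups did not overlap, and siCon 2 was the lowest of the controls. The log2 difference was -0.56 (SE 0.15), the most negative of the group, which puts the siERK3 signal at 68.0% of siCon (95% interval 53.8% to 86.0%, adjusted p = 0.144 in limma).

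Laminin receptors lay lower as well. ITGA6 (TC0200009973.hg.1), the alpha6 chain of laminin receptors, read 13.28, 13.21 and 13.17 in siERK3, against 13.79, 13.59 and 13.76 in siCon. The groups were apart by more than their spread, and the siERK3 signal was 71.2% of siCon (95% interval 58.1% to 87.2%). ITGA3, the alpha3 chain, which also binds laminins, read 13.15, 13.15 and 13.05 in siERK3, against 13.56, 13.41 and 13.38 in siCon, again without overlap. Its log2 difference was -0.33 (SE 0.13, adjusted p = 0.312 in limma). ITGA7, the remaining laminin-binding chain and one known from muscle, was below background at 4.15 in siERK3 and 4.14 in siCon.

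ITGB1 (TC1000010265.hg.1) encodes beta1, the chain shared by most integrins of adherent cells. Its levels were 14.36, 14.22 and 14.48 in siERK3, against 14.61, 14.77 and 14.86 in siCon. The highest siERK3 array lay just under the lowest siCon array, and the log2 difference of -0.39 (SE 0.14, adjusted p = 0.274 in limma) corresponds to 76.3% of the control signal. ITGA2, the alpha2 chain of a collagen receptor with beta1, read 10.83, 10.99 and 10.65 in siERK3, against 11.38, 11.09 and 11.34 in siCon. Here too the arrays separated, with a log2 difference of -0.44 (SE 0.15, adjusted p = 0.246 in limma). The other collagen-binding chains measured, ITGA10 and ITGA11, were below background, at 5.88 and 5.81 in siERK3 and at 6.05 and 5.69 in siCon.

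A few of these genes were called under other settings. With a mean-variance trend and robust moderation limma called 4 of the 39 lower (10.3%), against 2.14% of all genes called lower: ITGA6 (adjusted p = 0.00277), ITGB8 (0.00341), ITGB1 (0.0151) and ITGA3 (0.0436). In either direction it called 722 of all 17687 genes. When only genes above the median of mean level were tested, ITGA6 (0.0301) and ITGB8 (0.0353) were called lower. They are 2 of 24 (8.33%), against 3.39% of the 8843 genes tested that way called lower. In either direction 581 of the 8843 were called. In the other 16 settings tried, which include each array left out in turn, 0 of the members tested passed.

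**Figure D2:**
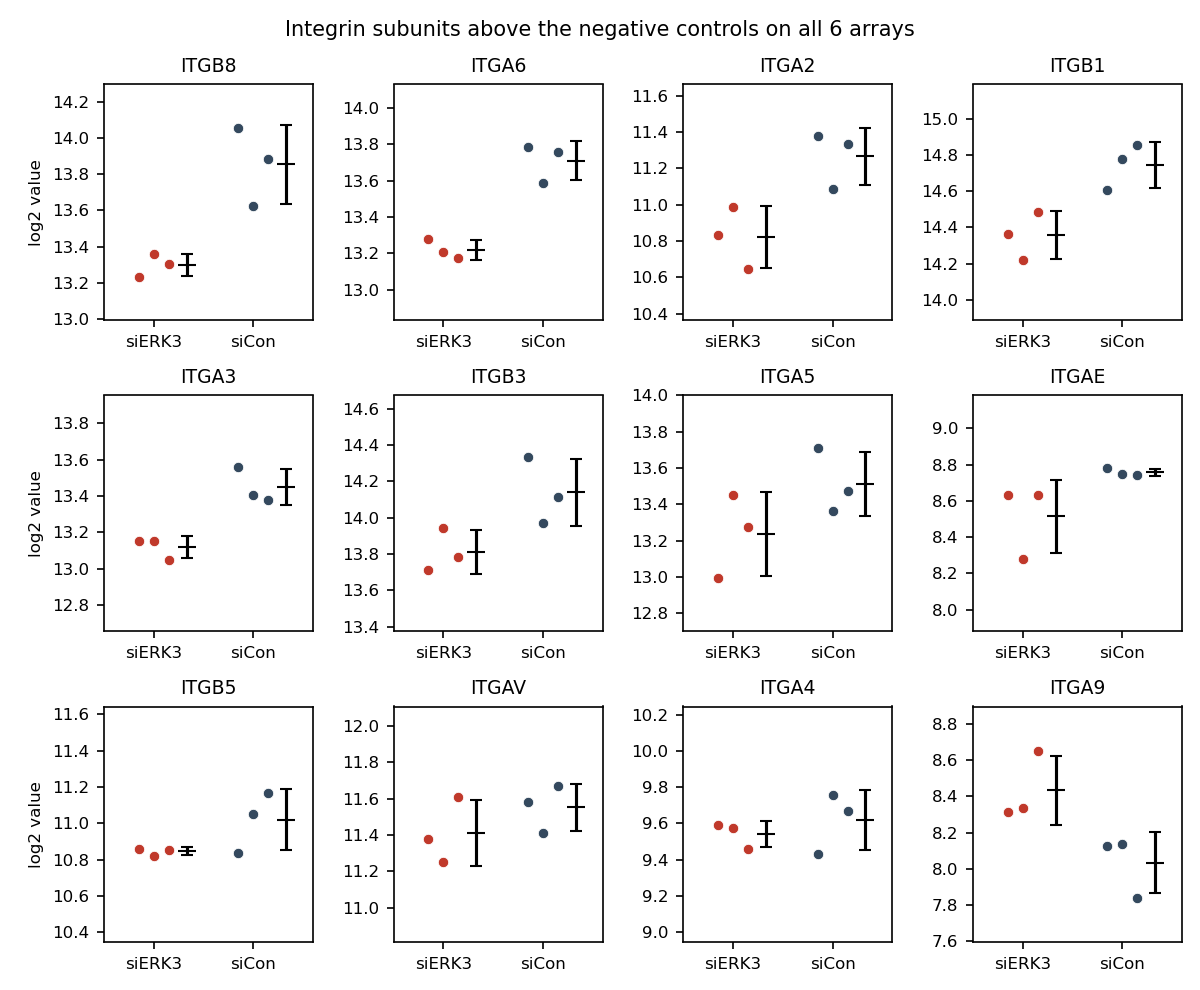
Log2 values (y axis, 1.3 log2 units in every panel) of the 12 detected integrin subunits in the siERK3 arrays (left, red) and the siCon arrays (right, blue), with the mean and SD beside them, ordered by difference. The groups are apart for ITGB8, ITGA6, ITGA2, ITGB1, ITGA3, ITGB3, ITGAE and, in the other direction, ITGA9, and they overlap for ITGA5, ITGB5, ITGAV and ITGA4.

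The other detected chains of receptors for the RGD motif, which fibronectin and vitronectin carry, were ITGB3, ITGAV, ITGA5 and ITGB5. ITGB3, the beta3 chain, read 13.71, 13.94 and 13.78 in siERK3, against 14.34, 13.97 and 14.11 in siCon. siERK3 2 lay just under siCon 2, and the difference of -0.33 had a 95% interval from -0.66 to 0.01 (adjusted p = 0.384 in limma). ITGAV, the alphaV chain that pairs with beta1, beta3, beta5, beta6 and beta8, read 11.38, 11.25 and 11.61 in siERK3, against 11.58, 11.41 and 11.67 in siCon. Those ranges overlapped, and the difference of -0.14 had an interval from -0.48 to 0.20 (adjusted p = 0.750 in limma). ITGA5, the alpha5 chain of the classical fibronectin receptor, read 12.99, 13.45 and 13.27 in siERK3, against 13.71, 13.36 and 13.47 in siCon, with siERK3 2 inside the control range and a difference of -0.28 (adjusted p = 0.538 in limma). ITGB5 stood at 10.86, 10.82 and 10.85 in siERK3, against 10.84, 11.05 and 11.17 in siCon, so that siCon 1 lay among the siERK3 arrays. ITGA8 and ITGA2B, the platelet chain, were below background in both groups.

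Among the remaining alpha chains ITGA9 was the exception in direction. ITGA9, which pairs with beta1 and binds tenascin and osteopontin, read 8.31, 8.33 and 8.65 in siERK3, against 8.12, 8.14 and 7.84 in siCon. All siERK3 arrays were higher, with a log2 difference of 0.40 (SE 0.16, adjusted p = 0.314 in limma), at levels not far above the background of 7.32 to 7.56. Its relative ITGA4 read 9.59, 9.58 and 9.46 in siERK3, against 9.43, 9.76 and 9.67 in siCon. The groups overlapped, and the sign of its difference turned without siERK3 3 and siCon 2 (0.03 in place of -0.08).

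Integrins of leukocytes were mostly undetected, as were the other genes that define those cells. ITGAL, ITGAM, ITGAX and ITGAD and their partner ITGB2 lay below background on all 6 arrays, as did ITGB7. ITGAX, the alphaX chain of myeloid cells, read 6.50, 6.74 and 6.73 in siERK3, against 6.55, 5.78 and 6.35 in siCon. ITGAL, the alphaL chain of lymphocytes, read 2.86, 3.00 and 3.17 in siERK3, against 3.28, 3.53 and 3.11 in siCon. Both overlapped between the groups. ITGAE, a chain of intraepithelial lymphocytes known for binding E-cadherin, was the leukocyte chain above background. It read 8.63, 8.28 and 8.63 in siERK3, against 8.78, 8.75 and 8.74 in siCon. The arrays did not overlap, with siERK3 2 the lowest, and the difference was -0.24 (adjusted p = 0.532 in limma). Of 10 leukocyte markers measured 3 were above background on every array, CD68, LYZ and NCAM1, while PTPRC, the pan-leukocyte marker, and CD3E, MS4A1, CD14 and CSF1R were below it on all. The summed level of the 10 was 12.29 to 12.33 in siERK3 and 12.71 to 12.86 in siCon on the log2 scale. CD68, the brightest, contributes most of that sum, and the 10 went both ways, with 4 higher and 6 lower and a median log2 difference of -0.08. The part of these markers in the integrin values was not tested. Of 8 fibroblast markers, LUM, COL1A2 and PDGFRB were above background in siERK3 and 2 of the 8 in siCon. They had a summed level of 10.15 to 10.24 in siERK3 and 10.39 to 10.51 in siCon, with LUM the brightest of them. The list went both ways, with 5 of 8 higher and 3 lower and a median log2 difference of 0.16. LUM fell, with a difference of -0.83 (adjusted p = 0.0441 in limma), while the list reached 0.97 on the higher side. At an unadjusted p under 0.05 in limma, 2 of the 8 were higher and 1 lower. The call of LUM was not followed through the other settings. The part of these markers in the integrin values was likewise not tested. All 5 platelet markers and all 6 endothelial markers were below background.

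The epithelial chains ITGB4 and ITGB6 were below background on all 6 arrays. ITGB4, the partner of alpha6 in hemidesmosomes, averaged 6.38 in siERK3 and 6.12 in siCon, and ITGB6 averaged 4.21 in siERK3 and 4.17 in siCon. Of 8 epithelial markers 3 were detected on every array, KRT8, KRT18 and CLDN4, and EPCAM, CDH1, KRT5, KRT14 and KRT19 were not. Their summed level was 12.99 to 13.09 in siERK3 and 12.73 to 13.16 in siCon, which overlap.

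The subunits were then read as pairs. Of the 24 integrin heterodimers known in humans, 10 had both chains above background on all 6 arrays. These were beta1 with alpha2, alpha3, alpha4, alpha5, alpha6, alpha9 and alphaV, and alphaV with beta3, beta5 and beta8. In 9 of the 10 both chains had a lower mean in siERK3, the exception being alpha9-beta1. Without siERK3 3 and siCon 2 the difference of ITGA4 turned to 0.03, so alpha4-beta1 then was no longer lower in both chains. Pairs share chains, so these are not independent: ITGB1 alone stands in 7 of them and ITGAV in 4. For 9 further pairs 1 chain was detected, including alpha6-beta4, and for 4, all with beta2, neither was.

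**Figure D3:**
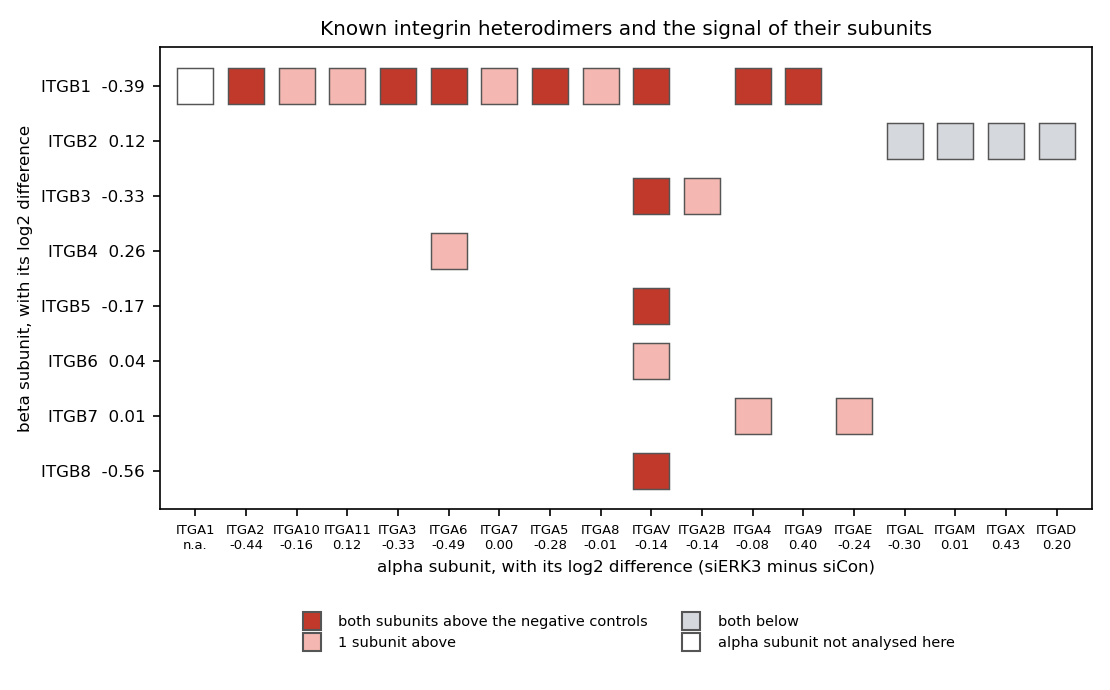
Known integrin heterodimers as squares, alpha chains on the x axis and beta chains on the y axis, each with its log2 difference (siERK3 minus siCon). Dark squares mark the 10 pairs with both chains above the negative controls on all 6 arrays, which lie in the ITGB1 row and the ITGAV column.

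The cytoplasmic proteins were split. Of the 14 measured, 12 were detected, and these had a median log2 difference of -0.08, with 8 lower and 4 higher. Their per-array medians, as deviations from each gene's mean over all arrays, were -0.03, 0.03 and -0.07 in siERK3, against 0.03, 0.06 and 0.00 in siCon. The ranges overlap. For the 12 detected integrins the same values were -0.16, -0.12 and -0.11 in siERK3, against 0.21, 0.08 and 0.16 in siCon, with no overlap.

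VCL (TC1000008056.hg.1) encodes vinculin, which binds talin and actin and reinforces adhesions under tension. Its replicates lay close together, at 11.82, 11.83 and 11.80 in siERK3, against 12.14, 12.18 and 12.13 in siCon. The gap between the groups was far wider than the spread within them. Limma, which pools the spread over genes, gave the difference of -0.34 (SE 0.12) an adjusted p of 0.275. Without that pooling (moderation of the variance) VCL missed the threshold too (adjusted p = 0.0603 in limma). PARVA, alpha-parvin, which forms a complex with ILK and PINCH, read 10.88, 11.18 and 10.71 in siERK3, against 11.40, 11.23 and 11.31 in siCon. siERK3 2 came close to siCon 2, and the difference was -0.39 (SE 0.15, adjusted p = 0.323 in limma). FERMT1, kindlin-1, averaged 11.62 ± 0.06 in siERK3 and 11.81 ± 0.06 in siCon (SD, n = 3 each), without overlap but with an adjusted p of 0.568.

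In the opposite direction lay BCAR1, ZYX and TNS3. BCAR1 (TC1600010869.hg.1) encodes p130Cas, a scaffold that FAK and Src phosphorylate. It read 9.38, 9.27 and 8.88 in siERK3, against 8.54, 8.85 and 8.73 in siCon. The lowest siERK3 array, siERK3 3, lay just above siCon 2. The difference of 0.47 (SE 0.17) was the most positive of the group, at 139% of the control signal (95% interval 106% to 181%, adjusted p = 0.273 in limma). ZYX encodes zyxin, a protein that moves to actin fibres under strain, and read 9.61, 9.37 and 9.49 in siERK3, against 9.22, 8.94 and 9.24 in siCon. Its arrays were apart too, by a difference of 0.36 (SE 0.14, adjusted p = 0.332 in limma). TNS3, tensin-3, which binds beta tails and actin, read 10.45, 10.40 and 10.78 in siERK3, against 10.36, 10.08 and 10.12 in siCon, a difference of 0.36 (SE 0.16, adjusted p = 0.370 in limma).

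Promoters are printed for 3 genes that separated the arrays without overlap and have 1 start site in the table used, ITGB8 as the receptor chain with the most negative difference, VCL as a linker with closely agreeing arrays and ZYX as a linker on the other side. Each run is 300 bases, from 250 before to 50 after the annotated start, from RefSeq on GRCh38.p14, read 5′ to 3′ on the plus strand. Capitals mark matches, on either strand, to the GC box (GGGCGG), the CCAAT box (CCAAT) or the TEAD motif (GGAATG). The ITGB8 promoter is at chr7:20330650-20330949, that of VCL at chr10:73997866-73998165 and that of ZYX at chr7:143381095-143381394.
ITGB8: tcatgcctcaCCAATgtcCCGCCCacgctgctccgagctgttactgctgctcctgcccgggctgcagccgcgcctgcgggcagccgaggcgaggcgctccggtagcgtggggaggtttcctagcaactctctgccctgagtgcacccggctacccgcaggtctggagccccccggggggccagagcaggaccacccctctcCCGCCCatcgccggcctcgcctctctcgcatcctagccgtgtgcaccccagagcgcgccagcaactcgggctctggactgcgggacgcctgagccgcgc
VCL: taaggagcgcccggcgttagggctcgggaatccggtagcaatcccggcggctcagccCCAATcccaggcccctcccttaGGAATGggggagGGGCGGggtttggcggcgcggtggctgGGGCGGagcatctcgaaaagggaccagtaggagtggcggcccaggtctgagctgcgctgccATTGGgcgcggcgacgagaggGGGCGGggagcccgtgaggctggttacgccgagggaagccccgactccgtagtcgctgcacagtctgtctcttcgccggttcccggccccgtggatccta
ZYX: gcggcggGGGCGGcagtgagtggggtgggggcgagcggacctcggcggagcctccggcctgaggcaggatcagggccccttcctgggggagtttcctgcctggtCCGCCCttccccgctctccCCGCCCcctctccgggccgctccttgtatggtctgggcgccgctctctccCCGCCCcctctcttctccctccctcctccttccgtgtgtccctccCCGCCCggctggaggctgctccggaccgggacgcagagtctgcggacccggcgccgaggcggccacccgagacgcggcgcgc

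The GC box occurred 2 times in the ITGB8 promoter, 3 times in VCL and 5 times in ZYX, and 45.0% of all 35116 promoters in the table hold it. CCAAT was found 1 time in ITGB8, 2 times in VCL and 0 times in ZYX, with 34.6% of all promoters holding it. VCL alone of the 3 had a TEAD match, which 14.03% of all promoters have. AP-1 sites (TGANTCA), the M-box (CATGTG) and the serum response factor's CArG box were searched as well and matched in 0 of the 3. Over 44 promoters of 27 measured genes of the group, the GC box was in 56.8%, CCAAT in 18.2%, TEAD in 11.4%, AP-1 in 9.09% (7.71% of all promoters), the M-box in 13.6% (11.1%) and the CArG box in 2.27% (1.29%). Promoters on the chromosome that carries PTK2 were left out for the group but kept among all promoters, so the shares come from unlike sets. Genes with several start sites weigh more in these shares. By gene, the GC box was in 18 of the 27 and CCAAT in 8. The 27 include 5 of the 7 genes lower and 3 of the 4 higher at an unadjusted p under 0.05 in limma. A match is a string of letters in this window and shows no binding.

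The arrays of the remaining detected cytoplasmic genes overlapped between the groups. PTK2, which encodes FAK, read 8.91, 9.39 and 9.41 in siERK3, against 9.72, 9.54 and 9.23 in siCon, and the interval of its difference ran from -0.69 to 0.17. PXN, paxillin, read 12.58, 12.40 and 12.43 in siERK3, against 12.35, 12.58 and 12.70 in siCon, with an interval from -0.40 to 0.25. The intervals of both include 0. ILK, the integrin-linked pseudokinase, read 12.30, 12.53 and 12.42 in siERK3, against 12.31, 12.34 and 12.31 in siCon, with an interval from -0.19 to 0.39. LIMS1 (PINCH), PARVB and FERMT2 (kindlin-2) had differences of -0.09, -0.11 and 0.00. FERMT3, the kindlin of blood cells, and TLN2 were below background, TLN2 at 5.28 in siERK3 and 4.92 in siCon.

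Across the 24 detected genes the difference went with the signal. The 15 genes with a mean level of 10 or more had a median log2 difference of -0.33, with 13 lower and 2 higher, and all 7 genes lower at an unadjusted p under 0.05 were among them. Of all 4188 detected genes at that level 2142 were lower and 2046 higher. At an unadjusted p under 0.05 in limma, 389 of the 4188 were lower and 374 higher. The 9 dimmer genes had a median of -0.08. Pearson's r between mean level and difference was -0.61 and Spearman's rho -0.63 (24 genes, which are not independent and share the same 6 arrays). Over all 7721 detected genes both were -0.01, and the median difference by level lay between -0.01 and 0.00. A signal also depends on the probes, so a higher value does not mean a more abundant transcript.

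**Figure D4:**
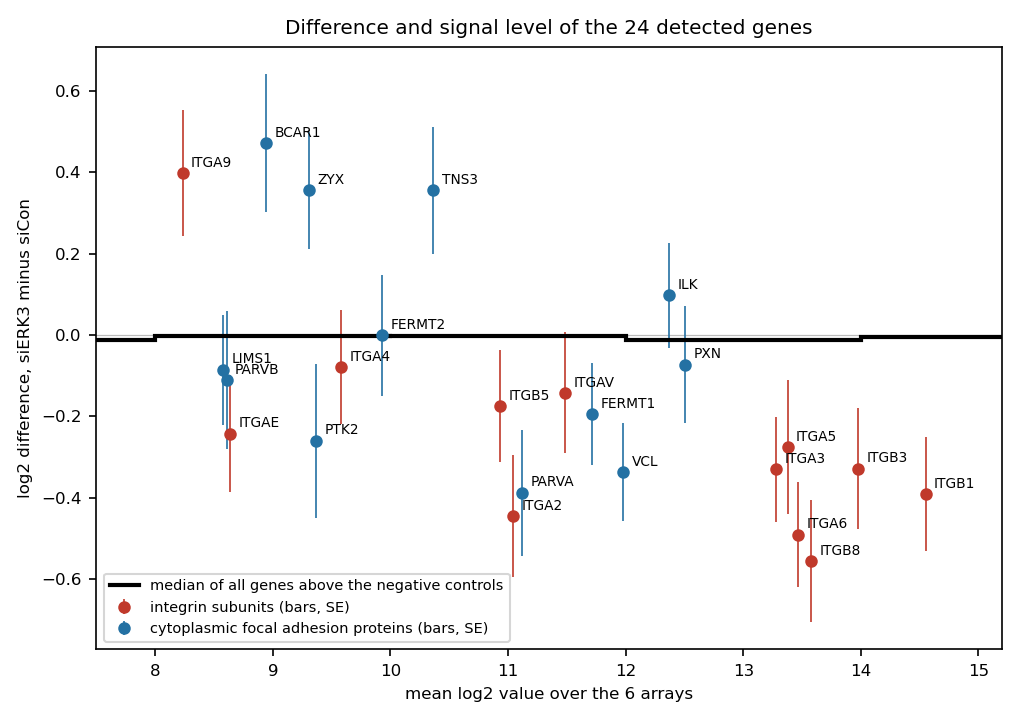
Log2 difference (siERK3 minus siCon, y axis, bars are SE) of the 24 detected genes against their mean log2 value over the 6 arrays (x axis). The black steps give the median difference of all detected genes by level and stay near 0, while the integrins above 13 lie between -0.28 and -0.56.

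Genes that work around integrin adhesions were read from 6 further lists with 133 measured genes, of which 5 passed limma's test over all genes, where 0.956% passed. The ligands held 4 of these. Of 26 measured integrin ligands, 3 rose, 1 fell and 22 did not pass, with a median log2 difference of 0.03. NID1, nidogen-1, which links laminin to collagen in basement membranes, read 14.11, 14.23 and 14.41 in siERK3, against 13.14, 13.19 and 13.33 in siCon. Every siERK3 array was higher, by 2.05-fold on average (adjusted p = 0.0167 in limma). SPP1, osteopontin, a ligand of alphaV and alpha9 integrins, read 9.74, 10.20 and 10.15 in siERK3, against 8.81, 9.18 and 8.99 in siCon, and rose 2.05-fold (adjusted p = 0.0337 in limma). Neither gene overlapped between the groups. L1CAM, an adhesion molecule that can bind RGD integrins, read 9.98, 9.60 and 9.79 in siERK3, against 8.33, 7.99 and 8.20 in siCon, and rose 3.07-fold (adjusted p = 0.00456 in limma). CCN1, a matricellular ligand of several integrins, read 8.90, 8.28 and 8.20 in siERK3, against 9.56, 9.50 and 9.72 in siCon. All siERK3 arrays were lower, and CCN1 fell 2.19-fold (adjusted p = 0.0427 in limma). These calls had unequal footing: with 1 array left out L1CAM passed in 6 of 6 fits, although not without siERK3 3 and siCon 2 together (adjusted p = 0.0966) or without moderation of the variance (0.0969). CCN1 passed only without siERK3 1, and NID1 and SPP1 passed in 0 of the 6 (highest adjusted p 0.0857 and 0.149). Without moderation none of NID1, SPP1 and CCN1 passed in limma (adjusted p = 0.106, 0.178 and 0.208). Nor did they pass without siERK3 3 and siCon 2 together (adjusted p = 0.167, 0.189 and 0.227 in limma). CCN1 also missed when all probe sets other than controls were tested (adjusted p = 0.0538 in limma).

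The other called gene was an actin linker. SORBS2, an adaptor of the vinexin family, read 10.66, 10.87 and 10.71 in siERK3, against 11.59, 11.42 and 11.61 in siCon. It fell 1.73-fold (adjusted p = 0.0373 in limma), and passed in 0 of the 6 fits with 1 array left out (highest adjusted p 0.160). SORBS2 also missed without moderation of the variance (adjusted p = 0.118 in limma) and without siERK3 3 and siCon 2 together (0.190). The other 28 actin linkers of the list did not pass, and the list's median was -0.04. TES, testin, had a log2 difference of -0.57 (adjusted p = 0.115 in limma), while SORBS3, vinexin, was below background at 5.30 in siERK3 and 4.58 in siCon.

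In the lists of 28 FAK and Src signalling partners, 17 lateral membrane partners, 19 integrin trafficking genes and 14 regulators of integrin activation, 0 genes passed limma's test. At an unadjusted p under 0.05 there were 3 higher and 1 lower among the signalling partners, 1 higher and 2 lower among the lateral partners, 3 lower among the trafficking genes and 1 lower among the regulators. Of all genes 6.98% were higher and 6.5% lower by that measure, so a count of 1 in such a list is near the background. YES1, a kinase of the Src family, had a difference of 0.74 (adjusted p = 0.0712), and PIK3R1 and SHC1 had 0.68 and 0.34. SDC4, syndecan-4, a proteoglycan that acts beside alpha5-beta1 on fibronectin, stood at 12.08, 12.24 and 12.20 in siERK3, against 12.85, 12.90 and 12.71 in siCon, with a difference of -0.64 (adjusted p = 0.0680). CAV2 had -0.48 and SDC1 0.78, SDC1 with 3 siERK3 and 2 siCon arrays above background. MYO10, a myosin that carries integrins into filopodia, had -0.68 (adjusted p = 0.151), RAB5A, a GTPase of early endosomes, -0.33 and ARF6 -0.38. LPXN, leupaxin, a relative of paxillin, had -0.40, SHARPIN, an inhibitor of integrin activation, -0.24 and RAPGEF1 0.30.

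**Figure D5:**
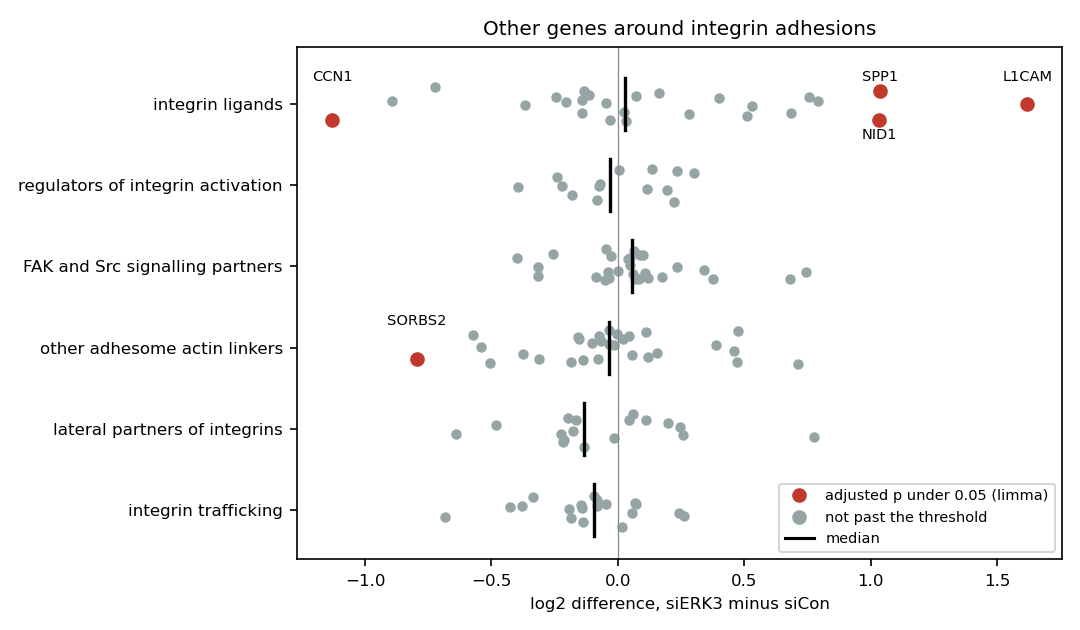
Log2 difference (siERK3 minus siCon, x axis) of the 133 measured genes of the 6 further lists (rows, points spread vertically for visibility), with each list's median as a bar. Red points passed limma's test at an adjusted p under 0.05, namely CCN1, NID1, SPP1, L1CAM and SORBS2.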

How the data were processed

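The values are the log2 signals the authors deposited, 1 per probe set and array, for 24351 probe sets. They run from 1.84 to 19.4, which reads as a log scale. In the sources used here, their background correction and normalization are not given. The zero point and any stretch of the scale are therefore unknown. The platform annotation gave 1 gene symbol for 17709 probe sets, and for 20 genes with several the brightest was taken. The 3739 unnamed probe sets and the controls stayed out of the test. Limma 3.58.1 (R 4.3.3) was fitted to all 17687 genes as siERK3 minus siCon, using lmFit then eBayes without covariate, filter or pseudocount, and the scripts were tested on simulated data. Limma's prior had 4.77 degrees of freedom. The number of arrays limits the precision. A gene was called detected where all 6 arrays exceeded the 95th percentile of their own negative controls.

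The 39 genes (the members), the lists and the tests were chosen with earlier results of these data known. Full values were given for the 14 members with the smallest p and for a fixed set of core subunits and adaptors, and from the other lists for called genes and the 3 with the smallest p. Other members, markers and the promoters were picked for the text after their values were seen. Same-numbered arrays did not deviate together (r = 0.05, -0.12 and -0.04), so the numbers were not used as a block in the fit reported. For unlike numbers r ran from -0.15 to 0.17, the highest for siERK3 3 with siCon 2. So few arrays cannot show that equal numbers are unpaired.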

Additional observations from a re-analysis of the deposited data

How the results depend on the processing

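In 18 other settings MAPK6 stayed past the threshold and 0 members were called higher. Members called lower numbered 2 among genes above the median of mean level and 4 with trend and robust moderation, and 0 in the other 16. The count over all genes, 169, was 365 above the 30th percentile of mean level, 581 above the median, 722 with trend and robust moderation, 8 without moderation, 33 with the replicate number as a block, 23 to 60 with 1 array left out and 7 without siERK3 3 and siCon 2, an alternative added after seeing the data. The replicate block gave the same differences and called 0 members. Of the 5 genes called in the other lists it kept L1CAM, and NID1 (adjusted p = 0.0604 in limma), SPP1 (0.0604), CCN1 (0.102) and SORBS2 (0.135) missed the threshold. The labels do not say whether equal numbers pair the samples. The members' median of -0.08 was -0.14 above the 30th percentile of mean level, a filter that drops only some undetected members. Above the median of mean level, where the 24 detected members remain, it was -0.18. It was -0.035 without siERK3 3 and siCon 2, and -0.10 to -0.042 with 1 array left out. For detected members the median was -0.22 to -0.14 with 1 array left out and -0.25 without those 2 arrays, and for detected integrins -0.35 to -0.25 with 1 left out. Of 21 members followed through the settings 19 kept their sign wherever tested. ITGA4 turned to 0.031 without siERK3 3 and siCon 2, and PXN ranged from -0.17 to 0.0069 with 1 array left out. The cause of these shifts was not tested. Members at an unadjusted p under 0.05 numbered 3 to 9 lower and 1 to 4 higher over all settings. Without detection calls, the negative controls limit what can be said of the 15 members below them.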
